A study of Homo sapiens with 6 samples.

Results

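The authors' deposited table of accessible regions holds 3838 regions, read here as lowered by the BET inhibitor JQ1. Of these, 331 lay inside very long protein-coding genes. They were chosen by position alone: the region had to overlap a protein-coding gene of at least 400 kb in the RefSeq GRCh38 gene table and to lie more than 1000 bp from the start and end of every protein-coding or lncRNA gene. The 331 regions fell in 216 of the 483 genes of that length, and 3507 regions of the table made up the rest. ATAC-seq, which uses a transposase to cut and tag open chromatin, was run on 3 established human myeloma cell lines, RPMI8226, KMS-11 and KMS-12, all labelled wild type. Each line was grown with 1 µM JQ1 for 72 h or with the solvent DMSO at an equal volume, with 1 library per line and treatment, so that 6 libraries formed 2 groups of 3. Values are log fold changes per line, read as log2 of JQ1 over DMSO, because the header of the table gives neither base nor direction. The 3 lines are the replicates of the treatment, nothing in the labels says that cultures were repeated within a line, and read depth is unknown. By contrast, duplicates are mentioned in the submitters' description of the design, which also names RNA-seq. Whether that wording covers these ATAC-seq libraries could not be settled, so a fold may or may not rest on duplicates.

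Very long genes consist mostly of intron sequence, and their introns can hold enhancers that act on the gene itself or on its neighbours. Many of them encode adhesion molecules, receptors and channels of neurons, and several span common fragile sites, stretches of DNA that break under replication stress. BET proteins bind acetylated histones at enhancers and promoters, and JQ1 occupies their bromodomains and displaces them. A gene name below says where a region lies and nothing about expression, which was not analysed here. Whether a region falls in an exon, an intron or a UTR was not analysed here either.

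Although chosen to lie away from the outer ends of genes, 6 of the 331 regions (1.81%) overlapped a window around a start that RefSeq lists inside the gene. These windows run from 250 bases before to 50 after a start. Of the 1328 regions inside shorter protein-coding genes, selected at the same distance from gene ends, 15 (1.13%) overlapped one. The windows of 4 of the 6 are shown, because they hold the letters of accessible DNA at members that overlap a start listed by RefSeq: the 3 that reached -0.5 in all 3 lines and ESR1, the widest. All are RefSeq GRCh38.p14 and read 5′ to 3′ on the strand of the start, with the bases inside the accessible region in capitals. They come from chr1:174964528-174964827 (plus strand, RABGAP1L), chr4:86360004-86360303 (minus strand, MAPK10), chr7:14376649-14376948 (plus strand, DGKB locus) and chr6:151807432-151807731 (plus strand, ESR1).
RABGAP1L internal start: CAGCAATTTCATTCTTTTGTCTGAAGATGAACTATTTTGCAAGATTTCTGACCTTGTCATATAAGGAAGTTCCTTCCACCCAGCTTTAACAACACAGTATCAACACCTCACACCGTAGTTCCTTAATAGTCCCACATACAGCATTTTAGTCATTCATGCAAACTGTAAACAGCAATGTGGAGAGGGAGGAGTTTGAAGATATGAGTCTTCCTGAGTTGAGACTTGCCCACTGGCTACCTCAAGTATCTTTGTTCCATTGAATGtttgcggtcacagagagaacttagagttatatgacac
MAPK10 internal start: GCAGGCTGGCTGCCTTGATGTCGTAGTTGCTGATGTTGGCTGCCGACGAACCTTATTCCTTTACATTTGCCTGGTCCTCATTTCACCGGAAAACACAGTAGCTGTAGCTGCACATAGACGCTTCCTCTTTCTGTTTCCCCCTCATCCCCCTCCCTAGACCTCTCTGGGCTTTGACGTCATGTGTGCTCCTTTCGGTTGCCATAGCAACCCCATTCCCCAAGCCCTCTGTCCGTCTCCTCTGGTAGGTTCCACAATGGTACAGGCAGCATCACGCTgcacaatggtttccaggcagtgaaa
LOC105375164 start inside DGKB: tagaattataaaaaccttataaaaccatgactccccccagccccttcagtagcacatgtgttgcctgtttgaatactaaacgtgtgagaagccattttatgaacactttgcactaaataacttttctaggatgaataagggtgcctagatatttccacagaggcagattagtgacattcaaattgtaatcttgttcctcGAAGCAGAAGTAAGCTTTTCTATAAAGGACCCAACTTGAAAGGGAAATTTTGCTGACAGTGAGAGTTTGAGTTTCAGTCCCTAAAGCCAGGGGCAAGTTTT
ESR1 internal start: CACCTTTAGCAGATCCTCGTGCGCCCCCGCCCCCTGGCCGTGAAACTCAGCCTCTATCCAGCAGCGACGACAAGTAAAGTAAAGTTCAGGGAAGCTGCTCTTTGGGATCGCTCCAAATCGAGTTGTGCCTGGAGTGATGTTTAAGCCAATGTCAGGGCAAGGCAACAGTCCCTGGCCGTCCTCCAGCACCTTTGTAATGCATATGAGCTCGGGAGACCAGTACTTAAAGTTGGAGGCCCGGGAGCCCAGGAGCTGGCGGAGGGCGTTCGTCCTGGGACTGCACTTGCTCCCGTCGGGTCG

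The region at the RABGAP1L start (chr1:174964519-174964790), in a gene for a Rab GTPase-activating protein, stood at -1.68 in RPMI8226, -0.77 in KMS-11 and -0.58 in KMS-12 in the authors' deposited table. Its mean was -1.01 ± 0.59 (SD, n = 3 lines), the lowest of the 6, with RPMI8226 well below the other lines. At MAPK10, the gene of the stress kinase JNK3 (chr4:86360029-86360492), the authors' deposited table gave -0.56 in RPMI8226, -0.56 in KMS-11 and -1.05 in KMS-12. The region inside DGKB, a diacylglycerol kinase gene (chr7:14376848-14377223), lay at a start listed inside the noncoding gene LOC105375164, away from that gene's outer ends. It had nearly equal values, -0.84 in RPMI8226, -0.76 in KMS-11 and -0.91 in KMS-12 in the authors' deposited table. ESR1 encodes estrogen receptor alpha, and its region (chr6:151807198-151808562) was 1364 bp wide and covered the whole window. There the authors' deposited table listed -0.66 in RPMI8226, -0.09 in KMS-11 and -0.89 in KMS-12, so KMS-11 was close to no change. The other 2 regions lay at starts of ADGRL2, which encodes an adhesion receptor of the latrophilin family (mean -0.51 ± 0.33), and of MCTP1, which encodes a C2 domain protein (mean -0.62 ± 0.32; SD, n = 3 lines each).

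The windows differed in base composition. The G and C content was 40.3% at RABGAP1L, 39.0% at LOC105375164, 53.3% at MAPK10 and 58.3% at ESR1, beside a median of 58.7% (quartiles 47.0 and 68.0%) over 35116 RefSeq start windows of the same length. CG pairs numbered 2 at RABGAP1L, 2 at LOC105375164, 9 at MAPK10 and 17 at ESR1, beside a median of 14. Short motifs were searched on both strands. Like base composition, they were taken over whole windows, with the bases outside the accessible region included. The ETS core CCGGAA, the kind of site that FLI1 and its relatives bind, occurred at position 86 of the MAPK10 window, counted from its 5′ end, and in none of the other 3 windows shown, beside 17.2% of all windows. A GC box (GGGCGG, 44.95% of all windows) and a CCAAT box (CCAAT, 34.6%) occurred in the ESR1 window, and TATAAA (11.5%) occurred 3 times in the LOC105375164 window. CACGTG (7.26% of all windows), TGANTCA (7.71%) and the octamer ATGCAAAT (1.77%) occurred in none of the 4. A match of this kind describes the letters and is no evidence of binding.

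Inside very long genes the size of the decrease was close to that elsewhere. The median log2 fold change of the 331 regions was -0.61 in RPMI8226 (quartiles -0.86 and -0.39), -0.77 in KMS-11 (quartiles -0.99 and -0.54) and -0.79 in KMS-12 (quartiles -1.04 and -0.56). The other 3507 regions had medians of -0.61, -0.71 and -0.79 in the same order. The difference, long genes minus other regions, was 0.0065 in RPMI8226, -0.065 in KMS-11 and -0.00011 in KMS-12. Its mean was -0.020 ± 0.040 (SD, n = 3 lines; exact two-sided sign-flip test over lines, p = 0.75, where 0.25 is the smallest p that 3 lines allow). KMS-11 alone set the sign, and without it the mean difference was 0.0032. No fold in the table was above 0, and a selection for loss of accessibility was assumed, so these medians describe how far selected regions fell and not how many regions fell.

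**Figure D1:**
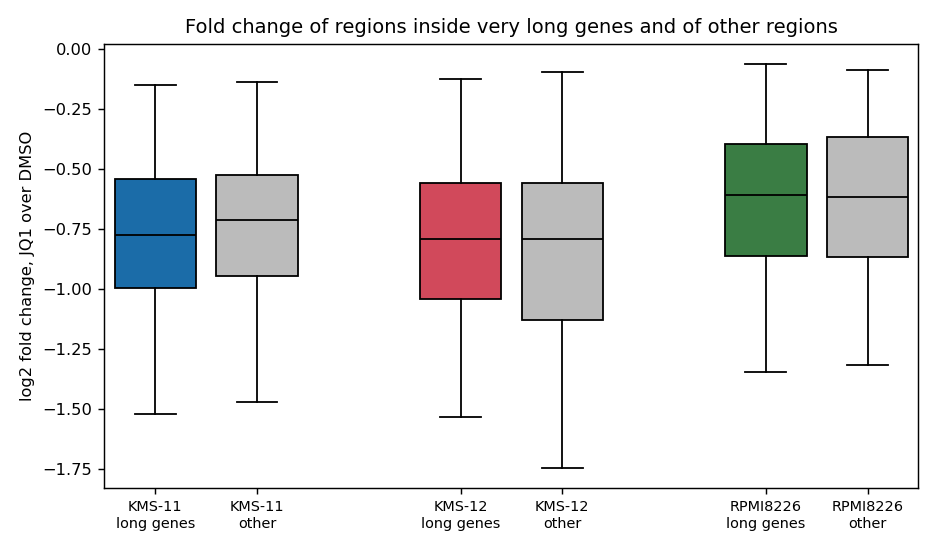
Log2 fold change of JQ1 over DMSO (vertical axis) for the 331 regions inside very long genes (coloured) and the 3507 other regions (grey) in each line. Boxes span the quartiles with the median as a line, and whiskers reach the 5th and 95th percentiles; the boxes of each line overlap almost wholly, with medians of -0.77 against -0.71 in KMS-11.

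Counts gave the same picture. The authors' number of lines in common was 3 for 84 of the 331 regions (25.4%, Wilson 95% interval 21.0 to 30.3%), beside 24.8% of all 3838 regions. It counts the lines whose fold was at or below -0.5. The other 247 regions missed -0.5 in 1 line, which was KMS-12 for 71 of them (28.7%), KMS-11 for 73 (29.6%) and RPMI8226 for 103 (41.7%). Over all 2886 regions shared by 2 lines, the shares were 27.2, 30.0 and 42.8% in the same order. A mean of -1 or lower was reached by 42 regions (12.7%, Wilson 95% interval 9.53 to 16.7%), beside 12.3% of all regions. limma, fitted over the whole table, called 292 (88.2%) lower (Benjamini-Hochberg adjusted p, threshold 0.05), beside 87.5% of all regions, and since the table was selected for folds below 0 this call repeats the selection. Each of these shares lay near its background and is not a result about long genes. With a line left out, limma called 58.0% of the long-gene regions without RPMI8226, 32.9% without KMS-11 and 55.0% without KMS-12, beside 55.0, 34.1 and 52.0% of all regions. Both remaining lines reached -0.5 in 56.5% without RPMI8226, 47.4% without KMS-11 and 46.8% without KMS-12, beside 57.0, 47.4 and 45.3% of all regions. A mean of -1 or lower was reached by 21.8% without RPMI8226, 14.5% without KMS-11 and 14.5% without KMS-12, beside 21.6, 16.8 and 13.4% of all regions.

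Some folds recurred exactly, to 6 decimals, in 10 or more regions of the table. In KMS-12 this held for 202 of the 331 regions (61.0%), beside 52.3% of all regions. The shares were 41.1% beside 41.3% in KMS-11 and 10.3% beside 7.84% in RPMI8226. The most frequent value among the long-gene regions in KMS-12 was -0.66, which 29 of the 331 shared, beside 175 of all 3838 regions. In KMS-11 it was -0.79, which 16 of the 331 shared, beside 178 of all 3838. The 87 regions without a recurring value were wider, with a median of 556 bp against 351 bp for the other 244. Their median mean fold was -0.72 against -0.71, and 25.3 and 25.4% respectively were shared by 3 lines. The read counts behind the recurring values are unknown.

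The regions were more thinly spread along very long genes than along shorter ones. Counted over gene length more than 1000 bp from gene ends, protein-coding genes of at least 400 kb held 0.997 regions per Mb (331 in 332 Mb) and shorter genes 1.503 per Mb (1350 in 898 Mb), a ratio of 0.663. Where genes overlap, regions and length count once in each gene, so 1350 is the number of pairs of a region and a gene. Taken line by line over regions at or below -0.5, the ratio was 0.651 in RPMI8226 and 0.674 in both KMS-11 and KMS-12, or 0.666 ± 0.013 (SD, n = 3 lines; exact two-sided sign-flip test of the log ratio, p = 0.25, the smallest that 3 lines allow). The lines are not independent here, since the table lists regions shared by at least 2 of them. This comparison of density was not among those planned beforehand. The density declined at each step of gene length, from 1.73 per Mb in genes under 50 kb to 1.25 in those of 400 to 600 kb, 1.05 in those of 600 to 1000 kb and 0.592 in the 69 genes of 1000 kb or more. The share of genes with at least 1 region went mostly the other way, from 2.37% under 50 kb to 39.9% at 400 to 600 kb, 51.7% at 600 to 1000 kb and 49.3% above. How densely accessible regions as a whole were spread over the same genes was not analysed here, so the density of lowered regions cannot be told apart from that of accessible ones.

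**Figure D2:**
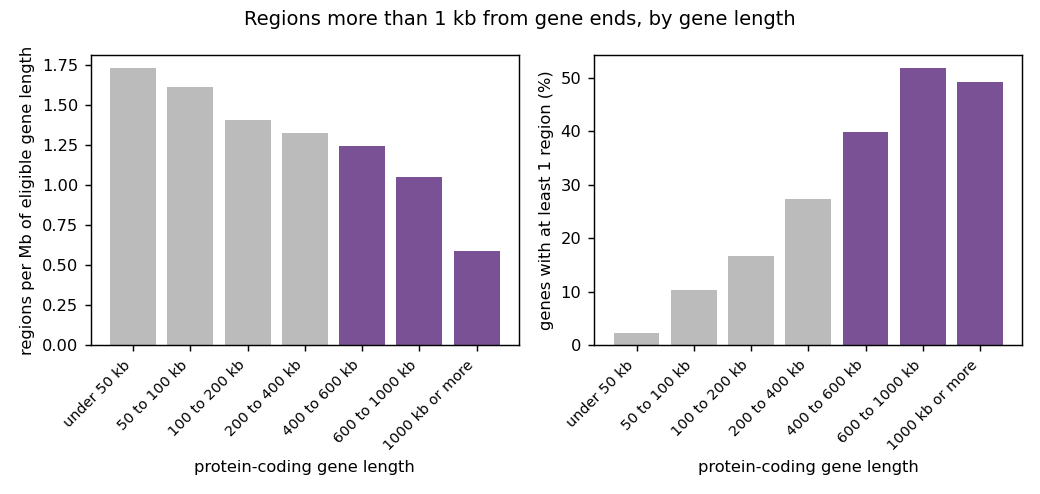
Regions per Mb of gene length more than 1 kb from gene ends (left) and percent of genes with at least 1 such region (right) for protein-coding genes by length. Purple bars are genes of at least 400 kb and grey bars shorter genes; density fell from 1.73 per Mb under 50 kb to 0.592 per Mb at 1000 kb or more.

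Within the long genes, medians of the mean fold by gene length, position and width lay between -0.74 and -0.66, and differences between these classes were not tested. The median of the mean fold was -0.72 over 161 regions in genes of 400 to 600 kb, -0.70 over 114 regions in genes of 600 to 1000 kb and -0.67 over 56 regions in genes of 1000 kb or more. In the longest class 10 of 56 regions (17.9%) were shared by 3 lines, against 34 of 114 (29.8%) and 40 of 161 (24.8%) in the others. The strand was known for 277 of the 331 regions, in 180 genes. With the gene divided into 5 equal parts from its start, the median mean fold was -0.71, -0.74, -0.70, -0.71 and -0.71, with 57, 46, 48, 57 and 69 regions. Regions of 500 bp or more had a median of -0.66 (96 regions), those of 300 to under 500 bp -0.73 (134) and those under 300 bp -0.71 (101). The 25 regions that also overlapped a lncRNA gene had a median of -0.73, against -0.71 for the other 306.

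Among the 11 lowest members, at most 1 per gene, 3 lay in genes from a list of synaptic and neuronal adhesion genes. That list held 36 of all 331 members, in 20 of 216 genes, and the difference in share was not tested. The lowest was in RIMS2, a scaffold of the presynaptic zone where vesicles are released (chr8:103652237-103652462), at -0.91 in RPMI8226, -1.64 in KMS-11 and -3.05 in KMS-12 in the authors' deposited table. Its mean was -1.86 ± 1.09 (SD, n = 3 lines), with KMS-12 far below the other lines. NLGN1 encodes neuroligin 1, a postsynaptic adhesion molecule, and its region (chr3:173737213-173737666) stood at -2.02 in RPMI8226, -1.45 in KMS-11 and -1.07 in KMS-12 in the authors' deposited table. All 3 lines were below -1 there, and the mean was -1.51 ± 0.47 (SD, n = 3 lines). For NCAM2, a neural cell adhesion molecule (chr21:21406928-21407245), the authors' deposited table gave -1.32 in RPMI8226, -1.44 in KMS-11 and -0.93 in KMS-12. The mean was -1.23 ± 0.27 (SD, n = 3 lines).

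Channels, transporters and calcium sensors supplied 3 more of the 11. This grouping serves description only: it matches none of the gene lists used below, and no background share was taken for it. KCND2 encodes a pore subunit of A-type potassium channels, and its region (chr7:120421201-120421586) was at -2.42 in RPMI8226, -1.43 in KMS-11 and -0.89 in KMS-12 in the authors' deposited table. Here RPMI8226 was lowest, and the mean was -1.58 ± 0.77 (SD, n = 3 lines). The region in SLC9A9, a sodium and proton exchanger of endosomes (chr3:143826369-143826612), had the closest agreement among the 11, with -1.35 in RPMI8226, -1.09 in KMS-11 and -1.27 in KMS-12 in the authors' deposited table. It averaged -1.24 ± 0.13 (SD, n = 3 lines). In NCALD, which encodes the calcium sensor neurocalcin delta (chr8:101764683-101764950), KMS-11 stood apart at -0.56, with -1.74 in KMS-12 and -1.46 in RPMI8226 in the authors' deposited table.

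The remaining 5 of the 11 lay in genes of mixed function. In LPP, a LIM domain protein of focal adhesions (chr3:188400397-188400893), the authors' deposited table gave -1.36 in RPMI8226, -2.30 in KMS-11 and -0.68 in KMS-12. The LPP mean was -1.45 ± 0.81 (SD, n = 3 lines), with KMS-11 the lowest line. EDIL3 encodes a matrix protein that binds integrins, and its region (chr5:84197568-84198034) averaged -1.41 ± 0.52 (SD, n = 3 lines), also with KMS-11 lowest. DENND1A encodes an exchange factor for Rab35, and its region (chr9:123917894-123918320) had -0.55 in RPMI8226, -1.10 in KMS-11 and -2.35 in KMS-12 in the authors' deposited table. BCAS3 (chr17:60726013-60726439) had the same order of lines, at -0.24 in RPMI8226, -1.07 in KMS-11 and -2.56 in KMS-12 in the authors' deposited table, and was the one region of the 11 that did not reach -0.5 in all 3 lines. The region in THSD7B (chr2:137208678-137208950) had a mean of -1.27 ± 0.45 (SD, n = 3 lines), with RPMI8226 lowest. Among the 11, RPMI8226 was the lowest line in 4, KMS-12 in 4 and KMS-11 in 3, and 9 carried a recurring value in at least 1 line. Over all 3838 regions, RPMI8226 was lowest in 23.3%, KMS-12 in 44.6% and KMS-11 in 32.1%, and 68.6% carried a recurring value.

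**Figure D3:**
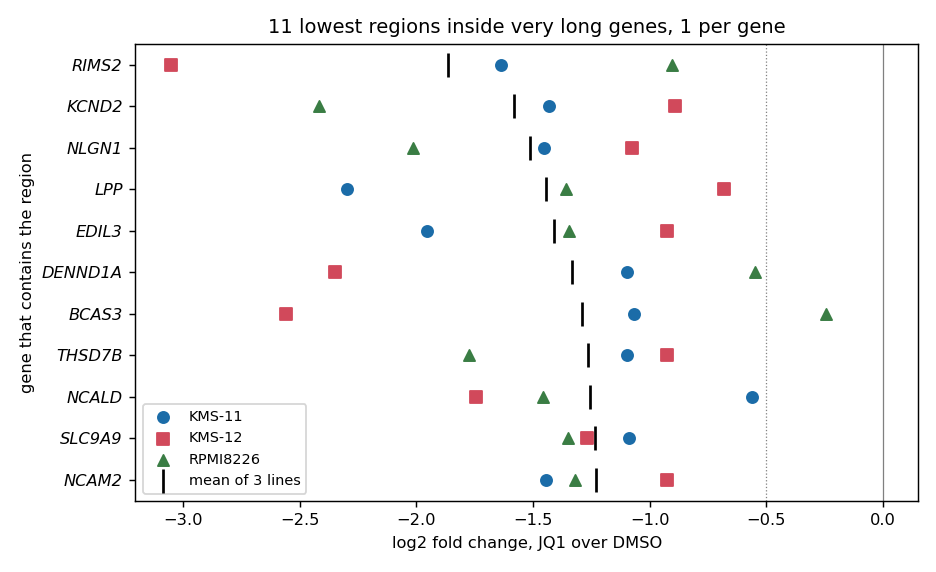
Log2 fold change of JQ1 over DMSO (horizontal axis) in each line for the 11 lowest regions inside very long genes, at most 1 per gene, named by the gene that contains them; black ticks are means of the 3 lines and the dotted line marks -0.5. The lines are spread widely at RIMS2 (-3.05 to -0.91) and close together at SLC9A9 (-1.35 to -1.09).

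At the other extreme were members on which the lines nearly coincided. Of the 84 regions shared by 3 lines, the smallest SD belonged to NEBL, which encodes the actin-binding protein nebulette (chr10:21097494-21097706), at -0.85 in RPMI8226, -0.88 in KMS-11 and -0.91 in KMS-12 in the authors' deposited table. Its mean was -0.88 ± 0.030 (SD, n = 3 lines). MAML3, a Notch coactivator gene (chr4:140103711-140104049), followed at -0.93 ± 0.055, then TMEM132D (chr12:129401531-129401925) at -0.82 ± 0.062 (SD, n = 3 lines each). PHACTR1, a regulator of actin and protein phosphatase 1 (chr6:13261329-13262049), was at -0.91 ± 0.068 (SD, n = 3 lines). The DGKB region described above was the fifth, at -0.84 ± 0.073, and RPS6KA2, a ribosomal S6 kinase gene (chr6:166728927-166729107), the sixth, at -0.70 ± 0.075 (SD, n = 3 lines each). All but PHACTR1 of these 6 carried a recurring value in at least 2 lines, RPS6KA2 in all 3, and NEBL and MAML3 had identical values in KMS-11 and in KMS-12. The part of recurring values in the small SDs was not tested. Over all 331 regions the SD ranged from 0.030 to 1.36 with a median of 0.36, against a median of 0.37 in the other regions. Spearman correlations of folds between lines were weak and negative across the 331 regions. They were -0.13 between KMS-11 and KMS-12, -0.059 between KMS-11 and RPMI8226 and -0.22 between KMS-12 and RPMI8226. In the other 3507 regions they were -0.13, -0.11 and -0.21 in the same order. The selection for at least 2 lines bears on these values, and they are given as a description over regions of the same 6 libraries.

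Most of the 216 genes held 1 member (137 genes), 52 held 2, 19 held 3, 7 held 4 and 1 held 5. The gene with 5 was DLG2, a postsynaptic scaffold gene of 2173 kb. Its regions ranged in mean from -0.97 to -0.58, and none of the 5 reached -0.5 in all 3 lines. Of all 3838 regions, 75.2% did not reach it either. The lowest (chr11:84673832-84674136) was at -0.20 in RPMI8226, -1.79 in KMS-11 and -0.93 in KMS-12 in the authors' deposited table. A further DLG2 region (chr11:84289463-84289699) had the opposite order, at -1.45 in RPMI8226, -0.15 in KMS-11 and -0.93 in KMS-12 in the authors' deposited table. So within 1 gene the line with the strongest decrease changed from region to region.

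MECOM, which encodes the transcription factor EVI1 of blood stem cells, was the exception among the 8 genes with 4 or more regions. KMS-12 was the lowest line in all 4 of its regions, a pattern picked out after the values were seen, while in each of the other 7 genes the lowest line changed. KMS-12 was the lowest line in 141 of all 331 regions (42.6%), beside 44.6% of all 3838 regions. The lowest MECOM region (chr3:169227900-169228323) was at -1.21 in RPMI8226, -0.24 in KMS-11 and -1.62 in KMS-12 in the authors' deposited table. The others were at -1.27 (chr3:169344579-169345009), -1.49 (chr3:169430763-169431436) and -1.27 (chr3:169626968-169628039) in KMS-12 in the authors' deposited table. The first of these is a recurring value, found exactly in other members too, among them SLC9A9, PDE4B and DMD. The MECOM means ran from -1.02 to -0.72.

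ROR1, a receptor of Wnt signals that is found on some B cell leukaemias, had means from -1.14 to -0.66. Of its 4 regions, 2 were shared by 3 lines, beside 24.8% of all regions. The lowest ROR1 region (chr1:63813825-63814143) was at -1.33 in RPMI8226, -1.19 in KMS-11 and -0.91 in KMS-12 in the authors' deposited table, with all lines below -0.9. DENND1A paired its region of -1.33 near the start of the gene, 12.02 kb from it, with 3 others between -0.60 and -0.53. Of the other genes with 4 regions, the means ran from -0.95 to -0.56 in SLC35F3, a solute carrier gene, and from -0.93 to -0.53 in IMMP2L, a mitochondrial inner membrane peptidase gene. In NAALADL2 they ran from -0.85 to -0.58. ARHGAP26, the gene of a GTPase-activating protein, had the means nearest to 0 of the 8 genes, from -0.64 to -0.41.

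**Figure D4:**
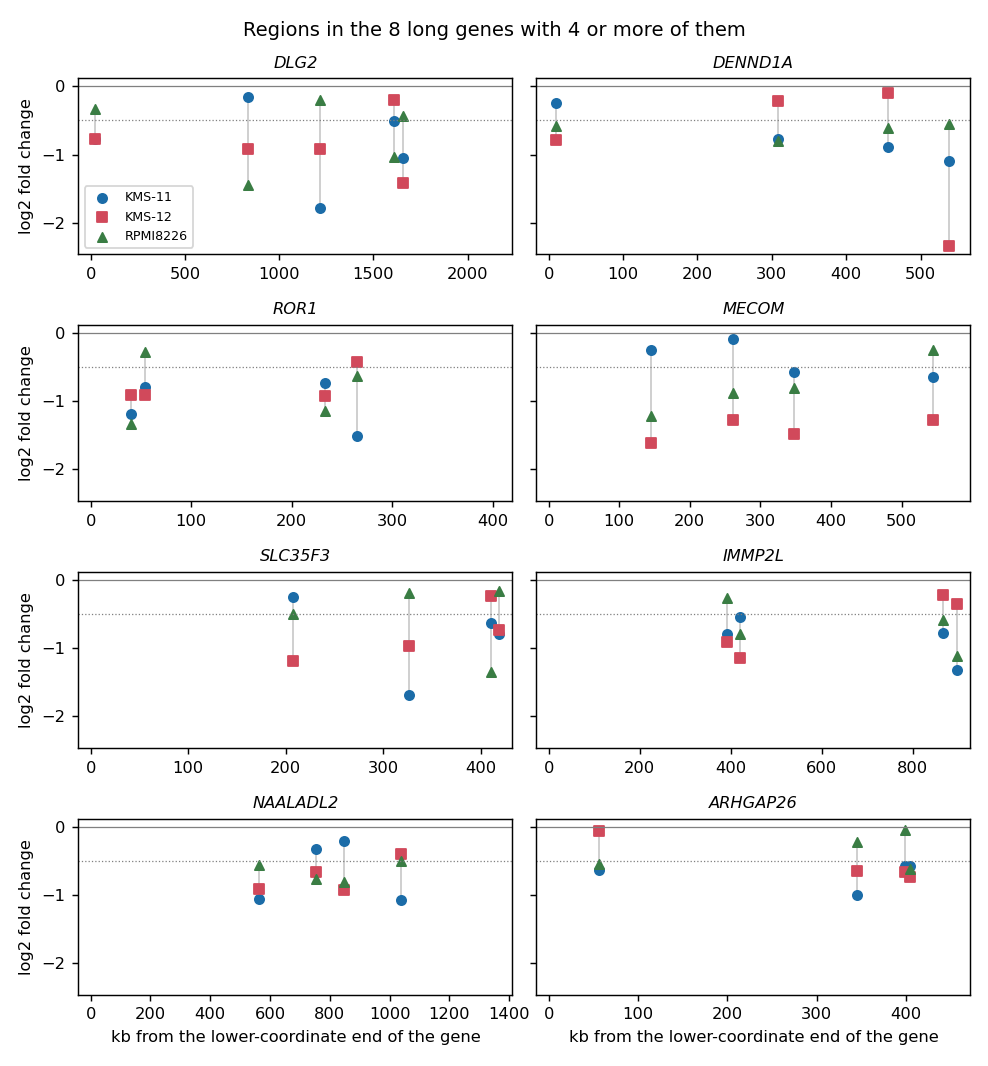
Log2 fold change of JQ1 over DMSO (vertical axis) against distance in kb from the lower-coordinate end of the gene (horizontal axis) for the 8 genes with 4 or more regions; each grey bar joins the 3 lines of a region and the dotted line marks -0.5. In MECOM the KMS-12 square is lowest in all 4 regions, from -1.62 to -1.27, whereas in DLG2 the lowest line changes between regions.

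Regions of the same gene were about as far apart in fold as regions of different genes. The median difference in mean fold was 0.21 over 161 same-gene pairs and 0.18 over 54454 pairs from different genes. By line it was 0.36 against 0.35 in RPMI8226, 0.37 against 0.38 in KMS-11 and 0.35 against 0.38 in KMS-12. The 8 pairs less than 10 kb apart, in 7 genes, differed by a median of 0.44 in RPMI8226, 0.15 in KMS-11 and 0.16 in KMS-12. Among them were neighbouring regions of CNTNAP2, a neuronal adhesion gene (chr7:148051785-148052136 and chr7:148058163-148058543), 6.03 kb apart, with means of -0.73 and -0.66. In RARB, a retinoic acid receptor gene, neighbours 1.33 kb apart (chr3:25460786-25461235 and chr3:25462564-25462941) had means of -0.78 and -0.58. These pairs share libraries and genes and are described without a test.

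The 4 longest genes with a member held 5 regions, with means from -0.77 in DMD to -0.48 in RBFOX1. The median mean fold of all 3838 regions was -0.71. In RBFOX1, a neuronal splicing factor gene of 2474 kb, the single region (chr16:7423362-7423825) was at -0.09 in RPMI8226, -0.71 in KMS-11 and -0.63 in KMS-12 in the authors' deposited table. PTPRD, a receptor phosphatase gene (chr9:9846548-9846809), had the same form, with -0.014 in RPMI8226, -0.86 in KMS-11 and -0.88 in KMS-12 in the authors' deposited table. Both CNTNAP2 regions also stayed above -0.5 in RPMI8226, at -0.21 and -0.13 in the authors' deposited table. In DMD, the dystrophin gene (chrX:31546263-31546725), KMS-11 was the line near 0, at -0.011, with -1.27 in KMS-12 and -1.04 in RPMI8226 in the authors' deposited table. None of these 5 regions in the 4 longest genes reached -0.5 in all 3 lines, and 75.2% of all 3838 regions did not either.

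By function, 168 of the 331 regions, in 100 genes, fell in at least 1 of 8 gene lists, some of which share genes, and 163 regions fell in none, with a median mean fold of -0.72. The synaptic and neuronal adhesion list had regions in 20 of its 51 long genes (39.2%, beside 44.7% of all 483). Its 36 regions had a median mean fold of -0.73, beside -0.71 for all 331 and for all 3838, and 11 (30.6%) were shared by 3 lines, beside 24.8% of all regions. Of 35 long channel and neurotransmitter receptor genes, 17 (48.6%, beside 44.7%) held 20 regions with a median of -0.68, and 4 (20.0%, beside 24.8%) were shared by 3 lines. Besides KCND2, the lowest were ITPR2, a calcium release channel of the endoplasmic reticulum (chr12:26473371-26473621), at -0.90 ± 0.10, and the cation channel gene TRPM3 (chr9:70563686-70564319) at -0.85 ± 0.21 (SD, n = 3 lines each).

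All 30 genes of the common fragile site list were at least 400 kb long, and 16 of them (53.3%, beside 44.7% of all long genes) held 36 regions with a median of -0.73, of which 12 (33.3%, beside 24.8% of all regions) were shared by 3 lines. The cytoskeleton and junction scaffold list had regions in 17 of 26 long genes (65.4%, beside 44.7%), with 24 regions at a median of -0.75 and 9 (37.5%, beside 24.8%) shared by 3 lines. After LPP, which is in both lists, the lowest were PARD3, a cell polarity gene (chr10:34670045-34670498), at -1.16 ± 0.37 and MAGI1, a scaffold of cell junctions (chr3:65581392-65581728), at -1.11 ± 0.37 (SD, n = 3 lines each). Kinases, phosphatases, phosphodiesterases and phospholipases had regions in 20 of 32 long genes (62.5%, beside 44.7%), with 33 regions at a median of -0.68 and 10 (30.3%, beside 24.8%) shared by 3 lines. Besides ROR1, the lowest were PDE4B, which breaks down cyclic AMP (chr1:65813979-65814213), at -1.11 ± 0.20 and the ephrin receptor gene EPHB1 (chr3:134840058-134840363) at -1.04 ± 0.24 (SD, n = 3 lines each).

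Transcription factors and chromatin regulators had regions in 16 of 30 long genes (53.3%, beside 44.7%), with 27 regions at a median of -0.71, of which 5 were shared by 3 lines (18.5%, beside 24.8% of all regions). Their lowest were in nuclear receptor genes. ESRRG, an estrogen-related receptor (chr1:216528867-216529237), was at -1.90 in RPMI8226, -0.93 in KMS-11 and -0.68 in KMS-12 in the authors' deposited table. RORA (chr15:60635844-60636107), which also overlapped the lncRNA gene LOC105370846, was at -2.28 in RPMI8226, -1.10 in KMS-11 and -0.061 in KMS-12 in the authors' deposited table. In both, RPMI8226 was the lowest line. Regulators of small GTPases had regions in 5 of 17 long genes (29.4%, beside 44.7%), and these 5 held 15 regions, with a median of -0.62 and 3 (20.0%, beside 24.8%) shared by 3 lines. Besides DENND1A and RABGAP1L, the lowest was in ARHGAP24, a Rac GTPase-activating protein gene (chr4:85681271-85681728), at -1.14 ± 0.67 (SD, n = 3 lines).

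The list of myeloma drivers and blood cell regulators had regions in 4 of 14 long genes (28.6%, beside 44.7%). Its 10 regions had a median of -0.72, and 5 of the 10 were shared by 3 lines, beside 24.8% of all regions. Besides LPP and ITPR2, the lowest was in RAD51B, a gene of homologous recombination (chr14:67881004-67881612), at -0.77 ± 0.36 (SD, n = 3 lines), with -0.60 in RPMI8226, -0.53 in KMS-11 and -1.18 in KMS-12 in the authors' deposited table. Over the 8 lists, the medians lay between -0.75 and -0.62, and limma called from 80.0 to 94.4% of a list's regions, beside 87.5% of all regions. These counts and medians are a description, and no difference between lists was tested.

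In 5 solute carrier genes there were 10 of the 331 regions, with a median mean fold of -0.69. The 39 regions of 700 bp or more had a median of -0.63, and the widest, 2045 bp in the potassium channel gene KCNB2 (chr8:72822308-72824353), was at -0.71 ± 0.70 (SD, n = 3 lines). Regions in genes just over and just under 400 kb had mean folds that overlapped in range. KCNB2, DPH6 and MACF1, the genes just over 400 kb (401 to 403 kb), had regions with means of -0.71, -0.82 and -0.78. TEX11, MAF and HECW2, just under it (397 to 399 kb), had regions at -1.05, -0.60 and -0.92. The 13 regions in long genes within 1000 bp of a gene end were left out, and their median mean fold was -0.76. Of the members, 4 lay within 5 kb of a miRNA gene without overlapping it, the nearest a TENM2 region (chr5:168166523-168167088) 594 bp from MIR12125, at -0.65 ± 0.21 (SD, n = 3 lines).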

How the data were processed

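ATAC-seq libraries (6) of 3 myeloma cell lines fell into groups by treatment as labelled (DMSO or 1 µM JQ1 for 72 h, 3 per group). The table that the authors deposited holds a fold change per line and region, taken here as log2, and a score for the number of lines in common, 2 or 3. DESeq2, MACS2, hg38 and GRCh38.p13 are named per the submitters' processing notes, without versions or roles. The sources used here give no aligner, read filter, transposase shift, peak setting, scaling or rule that selected regions. The log base follows the usual output of DESeq2, named by the authors. The direction, JQ1 over DMSO, was assumed, since neither the header nor the labels state it. That score equalled the number at or below -0.5 in all 3838 regions, and 0 folds were above 0. The table gives no counts, so depth is unknown and no count model was run; Wilson intervals cover counting of regions only.

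Regions were placed with 20050 protein-coding and 18303 lncRNA genes of RefSeq GRCh38.p14, which shares its chromosome coordinates with the authors' build. Where several long genes could hold a region, the longest was named. Strand came from the RefSeq start windows. Density used gene length more than 1000 bp from any gene end. With R 4.3.3, limma 3.58.1 tested each region's mean over lines against 0, with Benjamini-Hochberg adjustment over all 3838 regions. It was also run on simulated noise around 0 with some regions lowered. That setting lacks the selection for folds below 0, so it says nothing about calls in this selected table. On the deposited folds the limma variances were pooled fully, giving 1 standard error, 0.262, for all regions. Medians per line were compared with an exact sign-flip test (scipy 1.17.1). Each line pairs its own DMSO and JQ1 library, so a fold is already a paired value. Sign-flip p-values measure the spread between lines. Those of limma set each region's mean against a spread pooled over all regions, not against its own.

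The members and lists were chosen with earlier results of these data known. Named by rule were the 12 lowest means (1 per gene, of which 1 is not reported here), the 6 smallest SDs among regions shared by 3 lines, genes with 4 or more members, the 4 longest genes, and up to 3 genes from each of 8 lists. Alternatives left out a line, moved the length and distance limits, left out members on lncRNA genes or with recurring values, let limma's variance follow region width, and used means or gene means. Sequences of most regions were not used here, because only RefSeq start windows were at hand.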

Additional observations from a re-analysis of the deposited data

How the results depend on the processing

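Without a line, the share of long-gene regions called by limma ranged from 32.9 to 58.0% (88.2% with 3 lines), the share at or below -0.5 in all lines used from 46.8 to 56.5% (25.4%), and the share with a mean of -1 or lower from 14.5 to 21.8% (12.7%), beside 13.4 to 21.6% of all regions (12.3%). The first falls with fewer lines to test, and the second rises by construction, since fewer lines must reach -0.5. The difference in medians between long-gene and other regions turned from -0.020 to 0.0032 without KMS-11, and was -0.033 at its lowest, without RPMI8226. No other alternative turned its sign: it was -0.0035 with means in place of medians, -0.018 over gene means and between -0.025 and -0.0089 under the other limits on length, distance, lncRNA overlap and recurring values. The density ratio of long to shorter genes was not planned beforehand, and its alternatives were chosen after seeing the data. The ratio stayed below 1 in each alternative, from 0.523 without recurring values to 0.728 at 300 kb. It was 0.662 to 0.694 without a line. Means of the 65 named regions stayed within 1 SD, and below 0, in all 195 values with a line left out, which the spread of 3 values and the selection bring about. No paired analysis was possible beyond the main one because the table holds only folds within a line, so the fit with no replicate block, on values per library, was not run. Unknown depth limits what any single fold can show.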
